A study of Mus musculus with 18 samples.

Results

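The genes described here are 4 that encode the chains of MHC class II and its invariant chain (Cd74, H2-Aa, H2-Ab1 and H2-Eb1), Ciita, which encodes the class II transactivator, and 4 B cell genes (Cd79a, Cd79b, Ms4a1 and Ebf1). These 9 genes were taken by name, through their Ensembl identifiers, from the 37991 genes counted in each of 18 RNA-seq libraries of CD4+ T cells enriched from spleen, and their levels were compared between groups and between replicates. All mice were of the strain Tg4-H2u, which carries a transgenic TCR for a peptide of myelin basic protein, and mice of both sexes aged 6 to 12 weeks were used. There were 3 libraries in each of 6 groups. N0 cells came from control mice given PBS vehicle on the schedule used for tolerization, with a final dose of PBS 2 h before harvest. T0 cells came from mice tolerized by escalating subcutaneous doses of the 4Y peptide every 3-4 days and then given PBS 2 h before harvest. NAg and TAg cells were the corresponding naive and tolerized cells harvested 2 h after a final dose of the 4Y peptide antigen (Ag). NPI and TPI cells were naive and tolerized cells treated for 2 h in culture with PMA and the calcium ionophore A23187 (PI). No cultured group without PI is among these libraries, so PI and the time in culture cannot be told apart. CD4+ T cells were purified with an enrichment kit rather than sorted, so other spleen cells could remain.

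MHC class II molecules display peptides from ingested proteins to CD4+ T cells and are made mainly by B cells, dendritic cells and macrophages. Their alpha and beta chains assemble on the invariant chain Cd74, and their genes share promoter elements, called the X and Y boxes, that bind RFX and NF-Y proteins and on which the transactivator encoded by Ciita docks. Cd79a and Cd79b are the signaling partners of the B cell receptor, Ms4a1 encodes the surface protein CD20, and Ebf1 is a TF that specifies the B lineage. In the mouse none of these genes is known as a product of T cells in quantity, and in spleen they mark B cells and other antigen-presenting cells.

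Total counts ranged from 10758571 to 24119489 per library, and counts were scaled by the TMM method to normalized counts that are comparable between libraries. Of the 18 libraries, 9 carried between 5111 and 11652 reads of Y-linked genes and the other 9 carried 4 to 18. Y-linked reads were present in all NPI and TPI libraries, in T0 replicates 1 and 2 and in TAg replicate 3, and absent in all N0 and NAg libraries. The sex of the mice and PI treatment therefore cannot be told apart in naive cells. T cell genes were present in every library as labelled. Per kilobase of exon, Cd4 stood at 29.8% to 69.0% of Cd3e, the gene of a TCR signaling chain, whereas Cd79a stood at 0.815% to 7.79% of Cd3e and Cd74 at 19.6% to 140%. The upper end for Cd74 was in NAg (102% to 140%). Cd3e itself was lower in NAg than in N0 (log2 fold change -1.03, SE 0.09), so these percentages also move with Cd3e.

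In the genome build of the files (NCBIM37), H2-Ab1 lies on chromosome 17 from 34400154 to 34406363 and H2-Aa from 34406276 to 34424772 on the opposite strand, with 17 exonic bases in common. H2-Eb1 lies nearby, from 34442828 to 34453144. Ciita is on chromosome 16 (10480237 to 10527657), Cd79a on chromosome 7 (25682400 to 25687216), Cd79b on chromosome 11 (106172655 to 106176076), Ms4a1 on chromosome 19 (11324654 to 11340669) and Ebf1 on chromosome 11 (44430819 to 44821593). The reference genome is of a b haplotype strain, whereas the mice carried the u haplotype of the H2 locus. The effect of this mismatch on the counts of H2-Aa, H2-Ab1 and H2-Eb1 was not tested, and it is common to all libraries.

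The class II chain genes are shown first by the promoter elements through which Ciita acts, because Ciita and these genes diverged within each library after PI. Of the 5 class II members, windows of 300 bases around the start site (250 before and 50 after) are shown for H2-Aa and H2-Eb1. They came from RefSeq on GRCm38.p6. No window was at hand for H2-Ab1 and Ciita, and the promoter of Cd74 is not reported here. In the window of H2-Aa (chr17:34287774-34288073, minus strand) and in that of H2-Eb1 (chr17:34305617-34305916, plus strand), the letters GCAAC of the X box and GATTGG of the Y box were searched on both strands, and capitals mark the pair in which X precedes Y on the strand of the gene. A further match of the Y letters, on the opposite strand of the H2-Eb1 window, is left in lower case.
H2-Aa: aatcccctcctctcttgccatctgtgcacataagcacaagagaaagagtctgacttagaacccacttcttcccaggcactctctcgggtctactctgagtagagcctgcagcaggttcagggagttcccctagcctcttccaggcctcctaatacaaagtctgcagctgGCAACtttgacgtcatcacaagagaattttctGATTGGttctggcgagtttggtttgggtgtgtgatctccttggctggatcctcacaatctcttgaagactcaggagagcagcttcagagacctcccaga
H2-Eb1: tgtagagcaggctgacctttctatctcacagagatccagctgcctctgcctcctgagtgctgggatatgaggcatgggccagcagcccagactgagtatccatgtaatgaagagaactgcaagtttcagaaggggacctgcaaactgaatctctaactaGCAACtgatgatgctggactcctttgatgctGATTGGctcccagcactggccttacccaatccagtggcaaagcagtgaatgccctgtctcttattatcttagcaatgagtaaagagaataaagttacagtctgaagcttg
The X letters began 81 bases and the Y letters 49 bases before the start of H2-Aa, with 27 bases between them. For H2-Eb1 they began 91 and 60 bases before the start, with 26 bases between them. Among 32851 such windows of mouse genes, 35.2% held the X letters and 16.1% the Y letters on either strand, while 65 windows (0.198%) held both in this order on the strand of the gene and 10 to 30 bases apart. Of the 6 other class II genes with a window, 3 held the pair (H2-Eb2, H2-Oa and H2-Ob). The windows of Cd79a and Ebf1 held neither set of letters. The letters and their spacing were chosen with the windows of the class II genes in view, so the matches there are no test against the 0.198%. A match of letters describes the sequence and is not a measured binding site.

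All 9 genes were detected in every library, with counts from 10 reads (Cd79b in NPI replicate 1) to 6889 reads (Cd74 in TPI replicate 3). Cd74, the invariant chain, was the most abundant per kilobase in each group, and at 1021 ± 728 normalized counts per kilobase in N0 (SD, n = 3) it was followed by H2-Eb1 at 484 ± 379, H2-Aa at 329 ± 228 and H2-Ab1 at 240 ± 181. The B cell genes were less abundant, with 84.4 ± 80.5 per kilobase for Cd79b, 57.6 ± 58.6 for Ms4a1, 57.2 ± 52.1 for Cd79a and 8.39 ± 8.12 for Ebf1. Ciita stood at 39.4 ± 27.9 per kilobase in N0. The SDs were nearly as large as the means, because rested replicates of one group differed severalfold.

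In N0 cells, Cd74 stood at 2624, 803 and 892 normalized counts in replicates 1 to 3, and the other 8 genes had their highest N0 value in the same library. H2-Aa, an alpha chain, stood at 1174, 359 and 425. Cd79a stood at 170, 49.1 and 30.7. N0 replicate 1 was thus above its 2 partners for chain genes and B cell genes alike. In T0 cells, Cd74 stood at 3473, 2686 and 1011, and H2-Aa at 1241, 1221 and 386. Cd79a stood at 277, 92.7 and 41.2 in the same order. T0 replicate 1 was highest for all 9 genes and T0 replicate 3 lowest, and replicate 2 was near replicate 1 for the class II chains but nearer to replicate 3 for the B cell genes. The highest T0 replicate exceeded the lowest by 2.77-fold (H2-Eb1) to 6.86-fold (Ms4a1), and in N0 by 3.27-fold (Cd74, H2-Aa) to 5.61-fold (Ms4a1). T0 replicates 1 and 2 carried Y-linked reads and T0 replicate 3 did not, whereas none of the N0 libraries carried them. In bulk RNA, fewer cells of a type and less RNA per cell cannot be told apart, so these values do not give the number of B cells or other presenting cells left after enrichment.

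**Figure D1:**
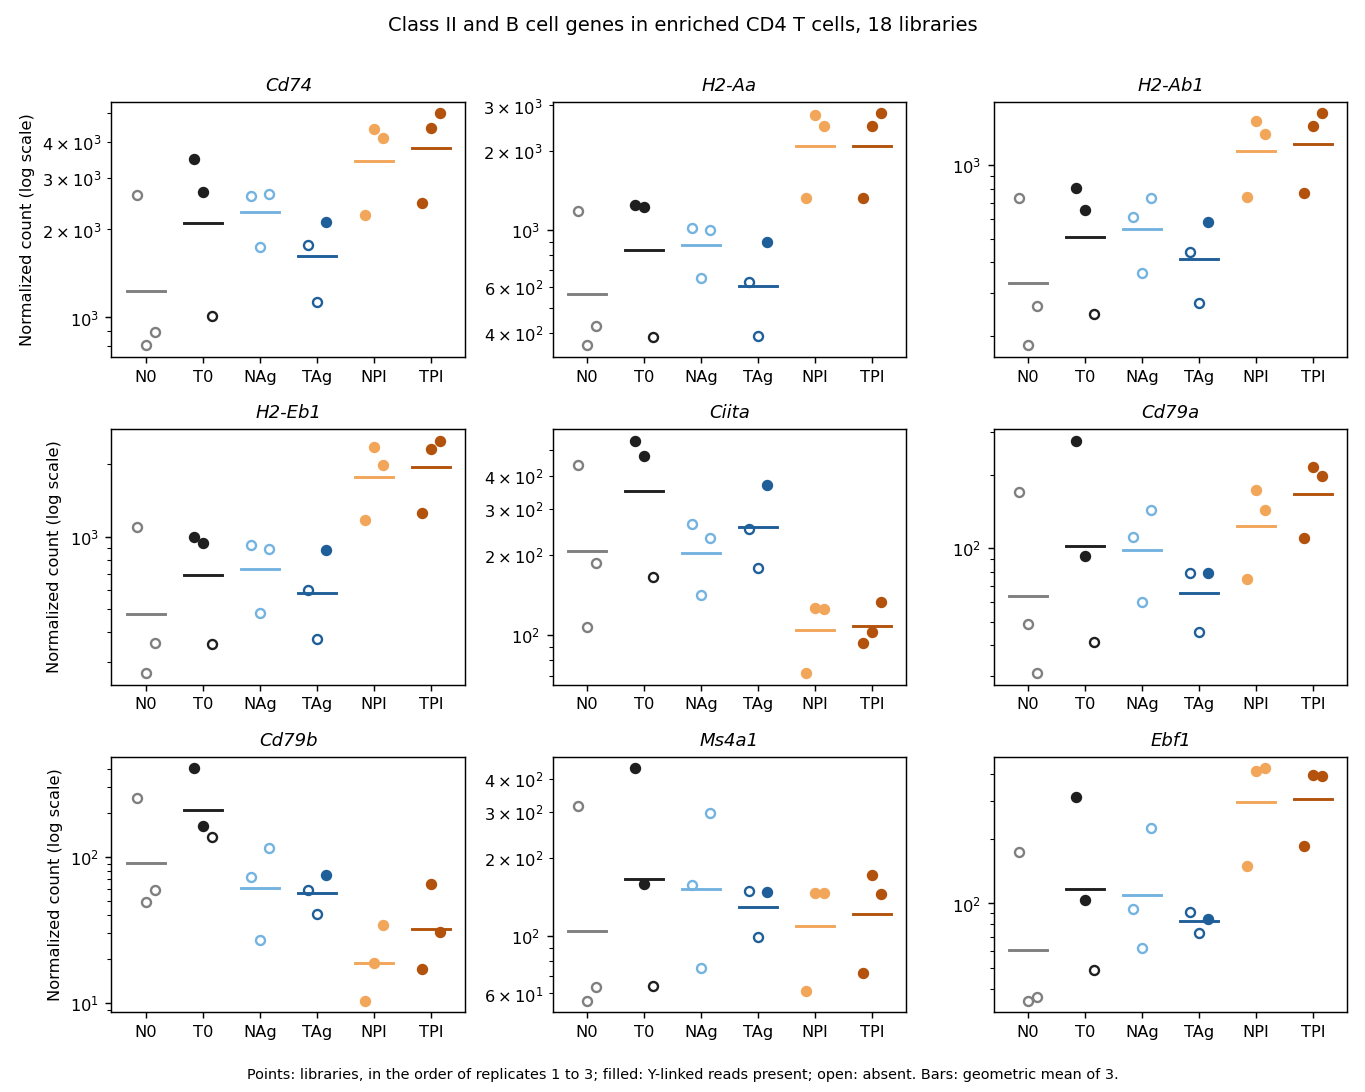
Normalized counts of the 9 genes (log scale) in the 6 groups, 1 point per library in the order of replicates 1 to 3, with the geometric mean of 3 as a bar and filled points for libraries with Y-linked reads. Cd74 and the class II chains are highest in NPI and TPI, Ciita and Cd79b are lowest there, and the replicates of N0 span 3.27-fold (Cd74, H2-Aa) to 5.61-fold (Ms4a1).

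Tolerized and naive cells were compared at rest, after Ag and after PI to ask whether tolerization was accompanied by a change in these genes. The groups overlapped for each of the 9 genes in all 3 comparisons, and no share of overlap over all genes is given beside this. In T0 against N0 none of the 9 genes was called (adjusted p under 0.05), beside 20.4% of all 17240 genes tested, with 0 of the 9 at an unadjusted p under 0.05 in edgeR and 0 called by DESeq2. Log2 fold changes ranged from 0.41 (H2-Eb1, SE 0.57) to 0.95 (Cd79b, SE 0.67), with a median of 0.69 beside -0.08 over all genes. After Ag (TAg against NAg) 0 of 9 were called beside 39.4% of all genes, again with 0 at an unadjusted p under 0.05 and 0 by DESeq2. Their log2 fold changes ranged from -0.63 (Cd79a, SE 0.75) to 0.34 (Ciita, SE 0.53). After PI (TPI against NPI) 0 of 9 were called beside 37.9% of all genes, with 0 at an unadjusted p under 0.05 and 0 by DESeq2, and the range was from -0.03 (Ebf1, SE 0.68) to 0.73 (Cd79b, SE 0.92). Standard errors of 0.51 to 0.92 are as large as many of these differences, so that 3 libraries per group leave them unresolved. Without N0 replicate 1, Cd79b was called higher in T0 (log2 fold change 2.1, adjusted p = 0.0457). Among the 4 libraries of T0 and N0 without Y-linked reads, the log2 fold changes were below 0 for 8 of the 9 genes, for example -0.51 for Cd74 and -1.18 for Ms4a1.

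In vivo Ag was asked about next, by comparing NAg with N0 and TAg with T0. In NAg, Cd74 stood at 2608, 1738 and 2643 normalized counts. All 3 libraries were above the 2 lower N0 replicates, and NAg replicates 1 and 3 were near the high N0 replicate. None of the 9 genes was called in NAg against N0, beside 65.5% of all genes, with 0 at an unadjusted p under 0.05 and 0 by DESeq2. Without N0 replicate 1, Cd74 was called higher after Ag (1.41, adjusted p = 0.0361). In TAg against T0, Cd79b was the only gene called. Cd79b, a receptor partner chain, stood at 402, 162 and 137 in T0 and at 59.5, 40.5 and 74.8 in TAg, without overlap. This was a log2 fold change of -2.0 (SE 0.72, adjusted p = 0.0301), that is 1 of 9 lower and 0 of 9 higher, beside 29.8% of all genes lower and 29.9% higher. Cd79b was called in 2 of the 6 fits that left out a library of these groups, those without T0 replicate 2 or 3. In naive cells Cd79b stood at 254, 49.1 and 59.5 in N0 and 73.1, 27.0 and 114 in NAg, which overlap (log2 fold change -0.75, SE 0.73, adjusted p = 0.389). The difference between the Ag responses of tolerized and naive cells was called for 0 of the 9 genes, beside 21.7% of all genes (0 at an unadjusted p under 0.05, 0 by DESeq2), and for Cd79b it was -1.24 with an SE of 1.03.

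After PI these genes differed from rest in both directions. The class II chain genes were higher in NPI than in N0, where PI, culture and sex cannot be told apart. H2-Aa stood at 1326, 2748 and 2504 normalized counts in NPI, all above the 3 N0 libraries, with a log2 fold change of 1.75 (SE 0.55, adjusted p = 0.0152). H2-Eb1, a beta chain, changed by 1.67 (SE 0.57, adjusted p = 0.0210) and H2-Ab1, the other beta chain, by 1.59 (SE 0.57, adjusted p = 0.0271). The lowest NPI library exceeded the highest N0 library by little for both, at 1173 against 1094 for H2-Eb1 and 737 against 735 for H2-Ab1. Cd74 stood at 2237, 4407 and 4118 in NPI and overlapped with N0 replicate 1 (log2 fold change 1.32, SE 0.54, adjusted p = 0.0498). Ciita did not follow the chain genes. Ciita stood at 439, 107 and 187 in N0 and at 71.8, 127 and 125 in NPI, a log2 fold change of -1.18 (SE 0.56) that edgeR did not call (adjusted p = 0.0836) and DESeq2 did (-1.15, adjusted p = 0.0485).

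In tolerized cells H2-Eb1 alone of the chain genes was called by edgeR after PI, at 994, 941 and 359 in T0 and 1255, 2317 and 2502 in TPI (1.40, SE 0.55, adjusted p = 0.0388). H2-Aa differed by 1.21 (SE 0.54, adjusted p = 0.0627), H2-Ab1 by 1.16 (SE 0.55, adjusted p = 0.0780) and Cd74 by 0.73 (SE 0.53, adjusted p = 0.236). DESeq2 called H2-Aa and H2-Ab1 as well (adjusted p = 0.0282 and 0.0446). Ciita fell. It stood at 541, 474 and 165 in T0 and at 92.9, 102 and 133 in TPI, with no overlap and a log2 fold change of -1.84 (SE 0.54, adjusted p = 0.00838). It was called in all 6 fits without a library of T0 or TPI. Among the libraries with Y-linked reads only, which leaves T0 replicates 1 and 2 against the 3 TPI libraries, Ciita and Cd79b were still the 2 genes called, while H2-Eb1 was not (1.06). H2-Eb1 was called in 1 of the 6 fits, that without TPI replicate 1 (adjusted p from 0.0281 to 0.135).

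The B cell genes did not move together after PI. Cd79b stood at 10.4, 18.7 and 34.0 in NPI and 17.0, 64.8 and 30.5 in TPI, below each rested library of the same cell state. It fell by 2.48 on the log2 scale in naive cells (SE 0.83, adjusted p = 0.0205) and by 2.70 in tolerized cells (SE 0.75, adjusted p = 0.00629). Cd79a, its partner chain, stood at 74.9, 174 and 144 in NPI and 111, 216 and 198 in TPI, which overlap with the rested libraries, and its log2 fold changes were 0.64 (SE 0.71) and 0.34 (SE 0.66). Ebf1, the lineage TF, stood at 173, 35.5 and 36.7 in N0 and at 150, 411 and 423 in NPI (2.0, SE 0.76, adjusted p = 0.0376). In tolerized cells its log2 fold change was 1.05 (SE 0.71, adjusted p = 0.208). Ms4a1, which encodes CD20, gave -0.30 (SE 0.80) in naive and -0.79 (SE 0.77) in tolerized cells and was not called in either.

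In NPI against N0, 5 of 9 genes were thus called higher and 1 lower, beside 28.6% of all genes higher and 32.7% lower. In TPI against T0, 1 of 9 was higher and 2 lower, beside 32.0% higher and 36.3% lower. The naive count rests on the fit across all 18 libraries and on the scaling. With library size taken as the total count, which shifts the median of all genes by -0.59 on the log2 scale in this comparison, 0 genes were called higher and 2 lower (Ciita and Cd79b), and in a fit of N0 and NPI alone 0 were called. The count without N0 replicate 1 was 5 higher and 0 lower, and the same genes were called without NPI replicate 1. Without N0 replicate 2 it was 2 lower, and without N0 replicate 3 it was 1 lower. Without NPI replicate 2 it was 1 higher, and without NPI replicate 3 it was 2 higher and 1 lower. No share of all genes called is given for these alternative fits, so changes in the counts are not shown to be particular to the 9 genes. By gene, leaving out each of the 6 libraries in turn kept the call of H2-Aa in 4 fits, of H2-Eb1 and Cd79b in 3 each, and of Cd74, H2-Ab1 and Ebf1 in 2 each. For TPI against T0 the count was 5 (3 higher and 2 lower) without TPI replicate 1. The 2 PI responses share no libraries, and their difference was called for 0 of the 9 genes, beside 20.2% of all genes (0 at an unadjusted p under 0.05, 0 by DESeq2), with values from -0.95 (Ebf1, SE 1.04) to -0.22 (Cd79b, SE 1.16).

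**Figure D2:**
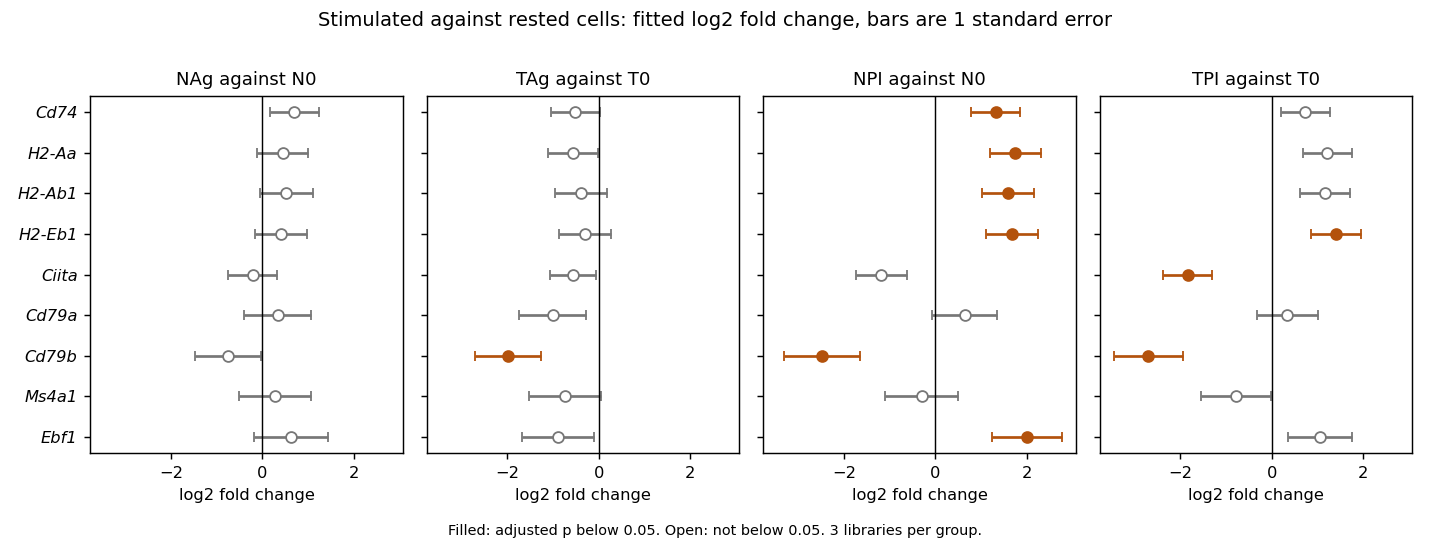
Fitted log2 fold changes of the 9 genes after Ag (2 panels on the left) and after PI (2 panels on the right) against rested cells of the same state, with bars of 1 standard error and filled points for genes called at an adjusted p under 0.05. After PI the 4 chain genes lie above 0 while Ciita and Cd79b lie below, and after Ag only Cd79b in TAg against T0 is filled.

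Because replicates of a group differed for most of the 9 genes at once, ratios of 2 genes within a library were compared next. They do not depend on the scaling of libraries, and this comparison was chosen after the levels had been seen. All 36 pairs of the 9 genes were tested after Ag and after PI, with an exact two-sided permutation test that reassigns libraries within naive and within tolerized cells. It has 400 assignments and a smallest p of 0.005, and p-values were adjusted over the 72 tests, which share genes and libraries. After PI 28 of 36 ratios changed at an adjusted p under 0.05 and 24 did not overlap with rest in either cell state. After Ag the numbers were 11 and 8, and 7 of these 8 pairs involved Cd79b. No such share is given for pairs of other genes, so these counts are not shown to be particular to the 9. Shares of single genes called by edgeR are another measure and no background for these pairs. In naive cells 28.6% were higher and 32.7% lower in NPI against N0, and 65.5% were called in NAg against N0. In tolerized cells 32.0% were higher and 36.3% lower in TPI against T0, and 29.9% higher and 29.8% lower in TAg against T0.

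The ratio of Cd79b to Cd79a stood at 1.49, 1.0 and 1.94 reads per read in N0 and at 1.45, 1.74 and 3.33 in T0. It was 0.451 to 0.794 in NAg and 0.750 to 0.948 in TAg, below every rested library of the same state, a 2.34-fold fall on average (exact permutation p = 0.005, adjusted 0.0112). After PI it was 0.108 to 0.237 in NPI and 0.153 to 0.300 in TPI, a 9.95-fold fall (exact permutation p = 0.005, adjusted 0.0112). Both partner chains of 1 receptor thus changed unequally at the RNA level after either stimulus. Among libraries with Y-linked reads the ratio was 1.45 and 1.74 in T0 and 0.153 to 0.300 in TPI, and among those without it was 1.0 to 1.94 in N0 and 0.451 to 0.794 in NAg. The averages over both states also take in NPI against N0, where PI and sex cannot be told apart, and T0 and TAg libraries of both kinds.

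Ciita per Cd74 read was 0.167, 0.134 and 0.210 in N0 and 0.156, 0.177 and 0.163 in T0. After PI it was 0.0287 to 0.0321 in NPI and 0.0229 to 0.0377 in TPI, a 5.67-fold fall (exact permutation p = 0.005, adjusted 0.0112). After Ag it was 0.0811 to 0.100 in NAg, below N0, and 0.142 to 0.174 in TAg, which overlaps with T0 (adjusted p = 0.0462 over both states, exact permutation test). The alpha and beta chain genes kept ratios to each other within narrow ranges. H2-Aa per H2-Ab1 read lay between 1.36 and 1.96 in all 18 libraries, and H2-Eb1 per H2-Ab1 read between 1.21 and 1.64. The latter ratio was 1.12-fold higher after PI than at rest (exact permutation p = 0.01, adjusted 0.0206). Cd74 rose less than the chains after PI. Cd74 per read of H2-Ab1, H2-Aa and H2-Eb1 was 1.29-, 1.36- and 1.44-fold lower than at rest (exact permutation p = 0.005, adjusted 0.0112 for each). H2-Ea-ps, counted on a chain gene that is a pseudogene in the reference strain, stood at 0.849 to 1.04 reads per H2-Aa read in N0 and 0.615 to 0.628 in NPI.

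Against Cd79a, Ebf1 rose 2.0-fold and Ms4a1 fell 2.03-fold after PI (exact permutation p = 0.005, adjusted 0.0112 for each), while neither changed detectably after Ag (adjusted p = 0.496 and 0.703, exact permutation test). H2-Ab1 per Cd79a read was 1.61-fold higher after PI on average, which was not below 0.05 (adjusted p = 0.0540, exact permutation test). It was 3.74 to 8.68 in N0 and 8.67 to 9.83 in NPI. In tolerized cells it was 2.895 to 7.086 in T0 and 6.645 to 8.217 in TPI, so that PI and rest overlapped in both states.

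**Figure D3:**
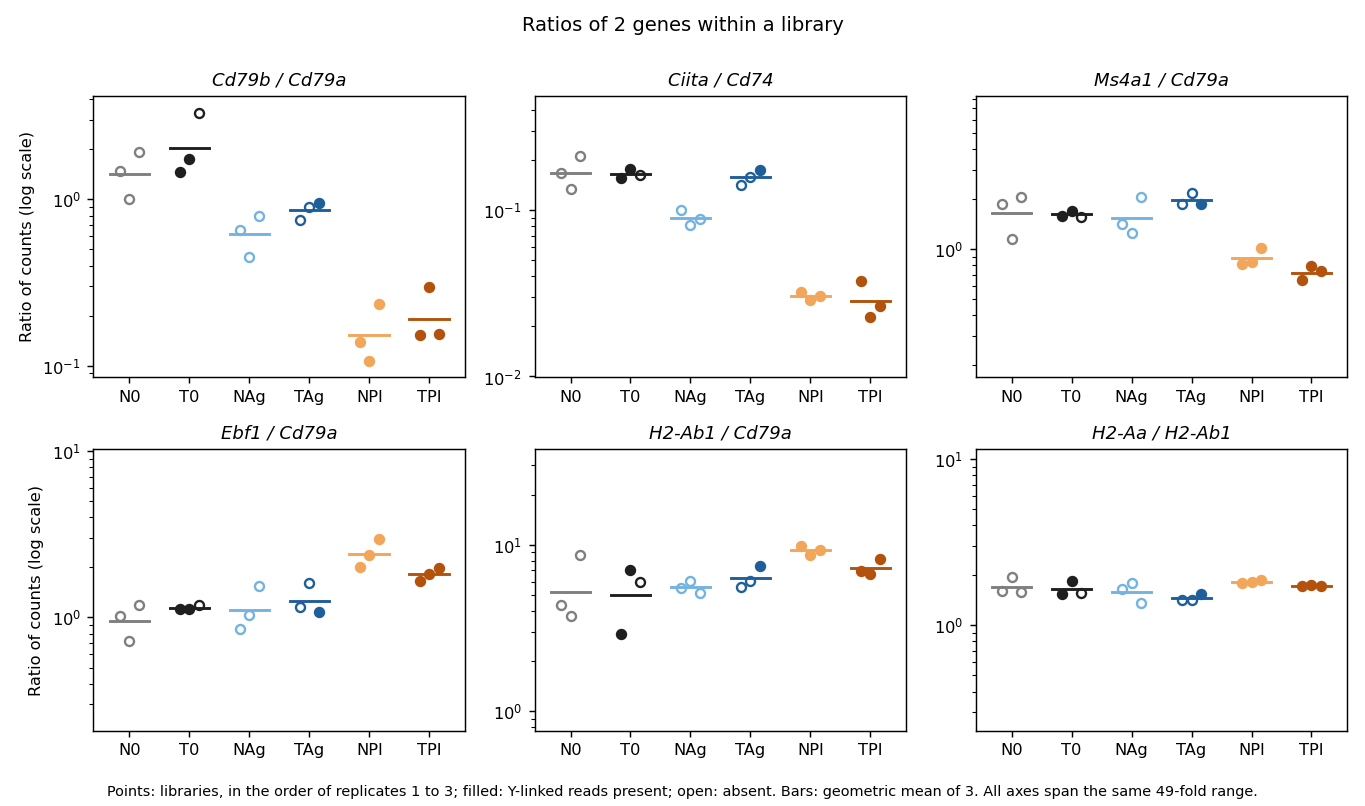
Ratios of the read counts of 2 genes within each library (log scale) by group, 1 point per library and the geometric mean of 3 as a bar, on axes that all span the same 49-fold range. Cd79b per Cd79a read steps down from rest (1.0 to 3.33) to Ag (0.451 to 0.948) to PI (0.108 to 0.300), while H2-Aa per H2-Ab1 read stays between 1.36 and 1.96.

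Class II and B cell genes were then set against each other by library. The geometric mean of Cd74, H2-Aa, H2-Ab1 and H2-Eb1 was 1254, 346 and 437 normalized counts in N0 and 1361, 1193 and 430 in T0. That of Cd79a, Cd79b, Ms4a1 and Ebf1 was 221, 46.9 and 45.4 in N0 and 351, 125 and 64.9 in T0. In NPI the class II mean was 1265, 2560 and 2287, all above N0, and the B cell mean was 51.7, 118 and 132, between N0 replicate 1 and the other N0 libraries. In TPI the class II mean was 1330, 2469 and 2746 and the B cell mean 70.6, 175 and 136, within the range of T0. The B cell mean pools Cd79b, which fell after PI, with Ebf1, which rose in naive cells. NPI and TPI replicates 1 were lowest of their groups on both measures.

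**Figure D4:**
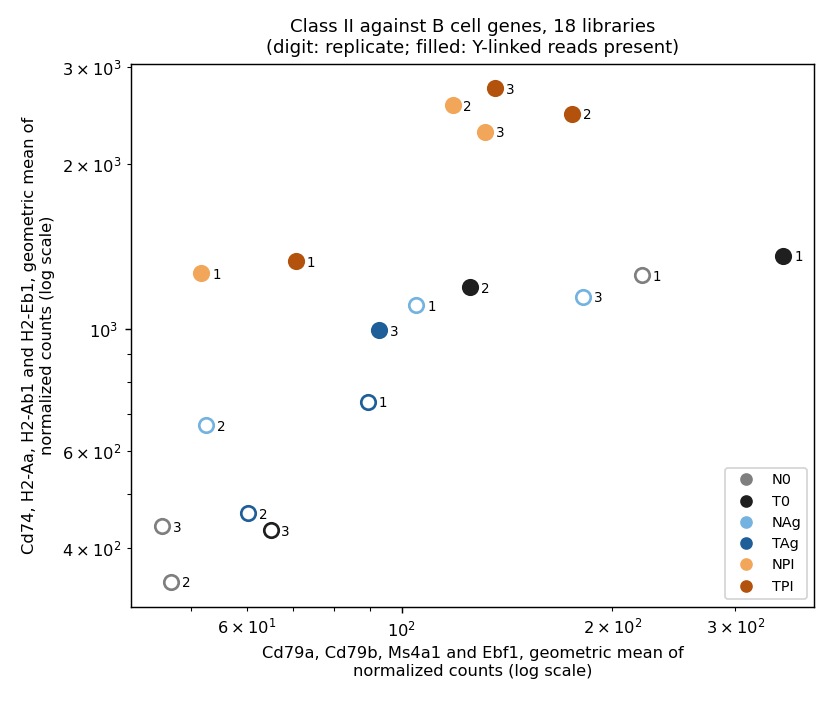
Geometric mean of the 4 chain genes (vertical) against that of the 4 B cell genes (horizontal) in normalized counts, both on log scales, 1 point per library with its replicate number and filled where Y-linked reads are present. Rested and Ag libraries fall along one rising band from N0 replicate 2 (46.9 and 346) to T0 replicate 1 (351 and 1361), and the 6 PI libraries lie above it.

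Likeness to other genes was measured as the root mean square difference of log2 normalized counts, each centered on its own mean, over the 18 libraries. H2-Ab1 was nearest to the chain genes H2-Eb1 (0.12) and H2-Aa (0.15) and to Cd74 (0.22). Outside the 9 genes it was nearest to H2-Ea-ps (0.25), Shank1 (0.29), Irf5 (0.35), Blnk (0.35) and Myof (0.35). Among the genes nearest to Cd79a were Scd1 (0.34), H2-DMb2 (0.35), H2-Ea-ps (0.37) and Cacna1e (0.39). Cd79b ranked 13725th among the tested genes in its distance from Cd79a (1.41), and Ciita stood at 1.12 from Cd74. These distances are a description over libraries that share groups and scaling.

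The counts of calls in the lists that follow are to be read beside the shares of all genes called, which were 65.5% in NAg against N0, 29.9% higher and 29.8% lower in TAg against T0, 28.6% higher and 32.7% lower in NPI against N0, 32.0% higher and 36.3% lower in TPI against T0, and 20.4%, 39.4% and 37.9% in T0 against N0, TAg against NAg and TPI against NPI. Other genes of the class II pathway were taken from a list of 7 (H2-Ea-ps, H2-Eb2, H2-Oa, H2-Ob, H2-DMa, H2-DMb1 and H2-DMb2), of which the DM and O genes encode the proteins that edit peptide loading. After PI edgeR called 0 of 7 in naive cells (0 at an unadjusted p under 0.05, 0 by DESeq2), where the median log2 fold change was -0.09. In tolerized cells H2-Eb2 was higher (1.55, SE 0.54, adjusted p = 0.0146) and H2-DMa lower (-0.73, SE 0.21, adjusted p = 0.00430). After Ag 0 of 7 were higher and 2 lower in naive cells (H2-DMa by -0.97, SE 0.23, and H2-Oa by -0.89, SE 0.35), and 0 higher and 3 lower in tolerized cells, led by H2-DMa (-1.47, SE 0.22, adjusted p = 6.65e-06). In T0 against N0 edgeR called 0 (2 at an unadjusted p under 0.05, 0 by DESeq2), in TPI against NPI 0 (0 and 0), and in TAg against NAg 1 lower.

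Of 7 genes for the RFX, NF-Y and CREB proteins that bind class II promoters, 1 was higher and 3 were lower in NPI against N0 (Creb1 -1.20, Nfyb -1.11, Rfx5 -0.40, Nfyc 0.74), and 2 were higher and 4 lower in TPI against T0. After Ag 3 were higher and 3 lower in naive cells, including Rfxank at -2.22 (SE 0.14) and Nfyb at 1.17 (SE 0.10), and 4 higher and 1 lower in tolerized cells. In T0 against N0 0 were higher and 1 lower, in TAg against NAg 2 and 2, and in TPI against NPI 1 and 5. These regulators are expressed in T cells as well. Of 6 genes for lysosomal proteases and a thiol reductase of peptide processing, 1 was higher and 3 lower after PI in both cell states. Ctsl, a cathepsin, rose by 2.5 on the log2 scale in each (SE 0.16 in both), and Ctss, Ctsd and Ifi30 fell. After Ag 0 were higher and 4 lower in naive cells and 0 higher and 2 lower in tolerized cells. In T0 against N0 0 and 1 were called, in TAg against NAg 3 and 1, and in TPI against NPI 1 and 1.

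Of 23 other B cell genes with counts, 22 were tested. In NPI against N0 6 were higher and 1 lower, among them Tnfrsf13c (3.24, SE 0.72), Blk (2.97, SE 0.67), Pou2af1 (2.18, SE 0.25) and Cd72 (1.11, SE 0.28), with a median of 0.49. In TPI against T0 6 were higher and 2 lower, led by Pou2af1 (3.57, SE 0.24) and Cxcr5 (2.61, SE 0.36), both of which helper T cells also express. In TAg against T0 2 were higher and 5 lower, including Cd72 (-1.98, SE 0.34) and Ighm (-1.49, SE 0.37), with a median of -1.02. In NAg against N0 2 were higher and 3 lower, in T0 against N0 1 was higher, in TAg against NAg edgeR called 0 (2 at an unadjusted p under 0.05, 1 by DESeq2), and in TPI against NPI 2 were higher and 1 lower.

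Markers of other cells were read beside these results, and their part in them was not tested. In NPI against N0, macrophage markers were lower for 7 of 11 and higher for 0, and neutrophil markers lower for 5 of 9 and higher for 2. Dendritic cell markers were higher for 3 of 10 (Ccr7, Zbtb46 and Xcr1) and lower for 1 (Cst3). Whether the calls of Ccr7 and the others came from dendritic cells or from the T cells themselves was not tested. In TPI against T0 the numbers were, in the same order, 4 lower and 0 higher, 7 lower and 0 higher, and 2 higher and 4 lower. Summed neutrophil markers stood at 73.4 to 181 normalized counts in N0 and 1740 to 3043 in T0, and all 9 were called higher in T0, whereas 0 of the 9 class II and B cell genes were. Of 7 erythroid markers edgeR called 0 in NPI against N0 and 0 in TPI against T0 (0 at an unadjusted p under 0.05 and 0 by DESeq2 in both), and 0 in T0 against N0, where 7 had an unadjusted p under 0.05 and DESeq2 called 5. Plasma cell markers were higher for 3 of 6 and lower for 0 after PI in either state, led by Irf4, which activated T cells also induce. Of 4 germinal centre markers tested, 1 was higher and 2 lower in NPI against N0 and 1 and 1 in TPI against T0. NK and CD8 T cell markers were higher for 1 of 6 and lower for 2 in naive cells and 0 and 5 in tolerized cells after PI. T cell genes summed to 49930 to 52430 in N0 and 79410 to 86760 in NPI, and 8 of 12 were higher and 4 lower in NPI against N0, and 8 higher and 3 lower in TPI against T0.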

How the data were processed

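RNA-seq was measured in 18 libraries of enriched CD4+ T cells, 3 in each of 6 groups. The authors aligned paired-end reads to mm9 (NCBIM37) with TopHat2 2.1.1, counted them per Ensembl gene with HTSeq 0.9.1 and deposited raw counts of 37991 genes for each library. How strand and overlapping genes were handled is not given in the sources used here. The submitters' processing notes also name DESeq2 1.18 and edgeR 3.24.

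The deposited counts were analyzed with R 4.3.3 and edgeR 4.0.16. The test was run on the 17240 genes, all 9 described here among them, whose normalized counts averaged 3 or more in some group. After TMM scaling, 6 group means were estimated in 1 model of the 18 libraries and compared with the robust quasi-likelihood F test of edgeR. P-values were adjusted by Benjamini-Hochberg over those genes, and a gene was called below 0.05. Normalized counts are the deposited counts over the TMM-scaled library size, itself relative to its geometric mean. The median library held 12268935 counts, and 10 to 59 reads per library limit the precision for Cd79b after PI. Replicates are described as biological by the study. No library pair was a duplicate. Samples were grouped by their titles. Scripts were tested on simulated data.

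The 9 genes and the lists of other genes were chosen with earlier results of these data known. Of 126 listed genes, 125 were matched by symbol (not Ighd). Ciita and Ebf1 each had 2 identifiers under their symbol, and the one with the longer exons was used. The other Ebf1 identifier shared 453 exonic bases on the same strand, and its highest count was 0. Counts of the other Ciita identifier are not given here. Besides the 9, at most the 4 genes with the smallest p of a list in a comparison were named, and Cd4 and Cd3e were named beside that rule after their values were seen. For Cd79a and H2-Ab1 the 5 nearest other genes were named, except 1 that is not reported here. Alternatives were DESeq2 1.42.0, DESeq2's size factors, total counts as library size, no filter, only the groups compared, the replicate number as a block, a stricter call (fold of at least 2 and an average count above 50) and each library left out. Added after seeing the data were fits of libraries with or without Y-linked reads and the ratios within libraries. X and Y box letters and their spacing were chosen with the windows of the class II genes in view.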

Additional observations from a re-analysis of the deposited data

How the results depend on the processing

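The number of genes called stayed at 0 in TAg against NAg, TPI against NPI and both differences between responses under each alternative run. For the other comparisons, leaving out 1 library gave 0 to 1 in T0 against N0, 0 to 1 in NAg against N0, 0 to 1 in TAg against T0, 1 to 5 in NPI against N0 (6 with all libraries) and 2 to 5 in TPI against T0 (3 with all libraries). In NPI against N0, 2 were called with total counts as library size, 0 with only the groups compared, 7 by DESeq2, and 4 without the filter on low counts. In TPI against T0, 5 were called by DESeq2. In TAg against T0, 0 were called among libraries with Y-linked reads only and 0 among those without. The replicate numbers do not pair the libraries, since deviations of libraries with equal numbers correlated between -0.20 and 0.11, and with the replicate block 4 were called in NPI against N0 and 2 in TPI against T0. Where leaving out a library leaves 2 in a group, or 1 after splitting by Y-linked reads, the spread is taken from all groups. No share of all genes called is given for the alternative fits.

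Total counts as library size turned the sign of H2-Aa (-0.095), H2-Ab1 (-0.0088) and Ciita (-0.084) in TPI against NPI, of Cd79a (-0.074) and Ms4a1 (-0.13) in NAg against N0, and of Cd74 (-0.083) and Cd79a (-0.48) in TPI against T0, where it shifts the median of all genes by -0.82 on the log2 scale. The replicate block gave -0.00050 for Ciita in TPI against NPI. Libraries without Y-linked reads gave -0.51 for Cd74, -0.76 for H2-Aa, -0.69 for H2-Ab1, -0.68 for H2-Eb1, -0.57 for Ciita, -1.02 for Cd79a, -1.18 for Ms4a1 and -0.75 for Ebf1 in T0 against N0 and 0.53 for Cd74, 0.41 for H2-Aa, 0.55 for H2-Ab1, 0.45 for H2-Eb1, 0.39 for Ciita, 0.60 for Cd79a, 0.95 for Ms4a1 and 0.75 for Ebf1 in TAg against T0, and those with them gave -0.087 for Cd79a in TPI against T0. None of these values was called. Log2 fold changes that changed sign when 1 library was left out are given as ranges over those fits, and none was called with all libraries. In T0 against N0 they ran from -0.31 to 1.78 for Cd79a, -0.095 to 2.09 for Ebf1 and -0.38 to 1.88 for Ms4a1. In TAg against NAg they ran from -0.68 to 0.23 for Cd79b, -0.94 to 0.085 for Ebf1 and -0.78 to 0.19 for Ms4a1. In TPI against NPI they ran from -0.090 to 0.42 for Cd74, -0.18 to 0.16 for Ciita, -0.36 to 0.27 for Ebf1, -0.24 to 0.29 for H2-Aa, -0.15 to 0.38 for H2-Ab1, -0.089 to 0.41 for H2-Eb1 and -0.18 to 0.43 for Ms4a1. In NAg against N0 they ran from -0.12 to 1.35 for Cd79a, -1.27 to 0.35 for Cd79b, -0.62 to 0.47 for Ciita, -0.065 to 1.77 for Ebf1 and -0.33 to 1.51 for Ms4a1. In TAg against T0 they ran from -1.34 to 0.074 for Ebf1 and -1.21 to 0.20 for Ms4a1. In NPI against N0 they ran from -0.73 to 0.93 for Ms4a1. In TPI against T0 they ran from -0.11 to 1.34 for Cd79a and -1.24 to 0.17 for Ms4a1. In the difference between Ag responses they ran from -1.06 to 0.024 for Ciita. In the difference between PI responses they ran from -1.35 to 0.74 for Cd79a, -1.36 to 0.44 for Cd79b, -2.11 to 0.082 for Ebf1, -1.11 to 0.089 for H2-Eb1 and -1.74 to 0.52 for Ms4a1. Apart from the scaling, the cause of these changes was not tested. Depth limits Cd79b most, with 10 to 59 reads per library after PI.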
